A study of Camellia sinensis with 6 samples.

Results

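Rubisco activase 1 (gene model evm.TU.Cha11g006560) and the most abundant Rubisco small chain (evm.TU.Cha06g019690), below without the prefix, are 2 of 40118 gene models counted in shoots of the tea cultivar 'Zhonghuang 2', a plant whose young shoots were yellow at low temperature. Both were chosen by protein name, by level and by their measured difference between low and high temperature in these same libraries, so their own levels are given as a description and without a test. The other gene models with either protein name were taken by name alone and were tested where they had enough counts. These are 3 other activase models and 3 other small chain models.

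RNA sequencing was done on 6 libraries of this single genotype, 3 from low temperature and 3 from high temperature. All plants first grew for 1 month at 22 °C, with light and dark of 12 h each under fluorescent lamps at 200 μmol per square metre and second. The low-temperature plants, the treatment, were then kept at 18 °C in the light and 14 °C in the dark, and yellowed shoots were taken from them. High-temperature plants, the control, had 26 °C in the light and 22 °C in the dark, and gave green shoots at the same time. Each temperature had its own climate chamber, so a chamber effect and a temperature effect cannot be told apart. Whether each library stands for its own plant is not stated, and p-values therefore measure only the spread between libraries, which may be technical.

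Rubisco fixes CO2 in the Calvin cycle and is built from large chains, encoded in the plastid genome, and small chains, encoded in the nucleus by a small gene family. Its active sites become blocked by tightly bound sugar phosphates. Rubisco activase, an ATPase of the AAA class, removes them and so keeps the enzyme working. In Arabidopsis the longer, alpha form of activase is switched by thioredoxin, and activase is known as a heat-sensitive protein in many plants.

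Libraries held between 15202546 and 15642015 counts. With edgeR's quasi-likelihood test and a Benjamini-Hochberg adjusted p under 0.05, 18.9% of 26767 tested gene models were called. At low temperature 9.27% were higher and 9.65% were lower. The share was larger among abundant genes. Among 1747 gene models with a mean of at least 100 CPM, a count scaled to library size by the TMM method, 32.1% were called, 20.5% higher and 11.6% lower. High-temperature replicate 2 stood apart from the other libraries of its group, since its mean chi-square per gene was 26.5 against replicate 1 and 23.0 against replicate 3, where those 2 differed by 5.40. Low-temperature replicate 1 stood apart less, at 11.7 against replicate 2 and 10.4 against replicate 3, where those 2 differed by 5.76. In bulk shoots, fewer cells of a type and less RNA per cell cannot be told apart.

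Rubisco activase 1 was more abundant in all 3 cold libraries than in any warm one. Its level per length was 520, 733 and 658 FPKM in low-temperature replicates 1, 2 and 3, against 272, 264 and 271 FPKM in high-temperature replicates 1, 2 and 3. The groups did not overlap, which was also so for 36.5% of tested gene models. The warm libraries lay within a narrow band and the cold ones spread widely, with replicate 1 the lowest and replicate 2 the highest. On the TMM-scaled CPM scale the means were 914 ± 156 at low and 389 ± 3.31 at high temperature (SD, n = 3 each), a 2.35-fold difference. The fitted log2 change of Cha11g006560, low minus high, was 1.23 ± 0.16 (SE). Without high-temperature replicate 2 the log2 change was 1.23 as well, and over the 15 alternatives it ran from 1.12 to 1.36.

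The small chain Cha06g019690, which is among the most abundant RNAs of the shoot, was lower in every cold library than in any warm one. It had 6969, 7581 and 7268 FPKM in low-temperature replicates 1, 2 and 3, against 11397, 12170 and 11968 FPKM in high-temperature replicates 1, 2 and 3. By FPKM it ranked 6, 2 and 3 of 40118 gene models in the low-temperature libraries, and 3, 1 and 3 in the high-temperature ones. The CPM means were 3907 ± 165 at low and 6407 ± 261 at high temperature (SD, n = 3 each), a ratio of 0.610. Its log2 change was -0.71 ± 0.18 (SE), and -0.68 without high-temperature replicate 2. The 15 alternatives gave log2 changes from -0.76 to -0.68.

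**Figure D1:**
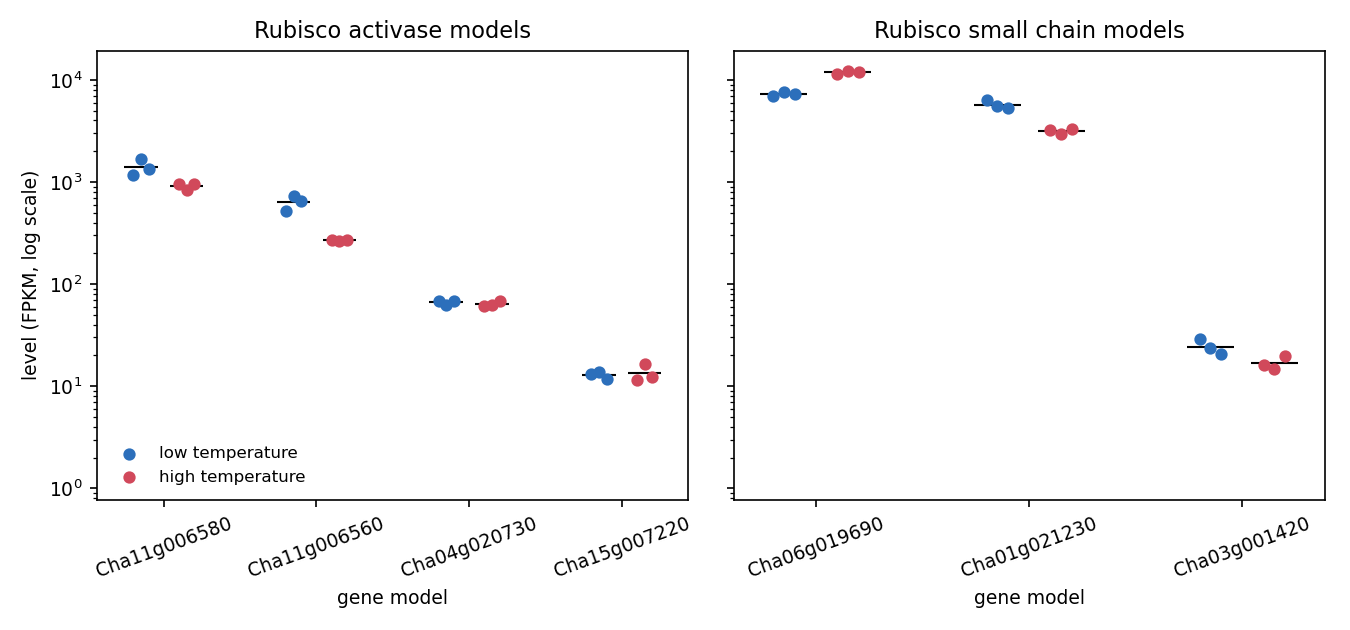
Levels of the Rubisco activase models (left) and small chain models (right) in each library, in FPKM on a log scale, with low temperature in blue beside high temperature in red and a black line at each group mean. The groups are apart for Cha11g006580, Cha11g006560, Cha06g019690, Cha01g021230 and Cha03g001420, with Cha06g019690 lower at low temperature and the other 4 higher.

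Activase RNA came mostly from a pair of neighbouring gene models. Cha11g006560 lies on sequence 11 of the deposited assembly, from 60094476 to 60098570 on the plus strand. Cha11g006580 lies 18556 bases further on, from 60117126 to 60119780 on the minus strand, with 1 gene model between them. The deposited name of Cha11g006560 carries the alternative name alpha form, and its coding length of 1419 bases is 111 longer than that of Cha11g006580. Cha11g006580 was the more abundant of the pair and rose at low temperature, with 1183, 1679 and 1333 FPKM in low-temperature replicates 1, 2 and 3, against 951, 826 and 962 FPKM in high-temperature replicates 1, 2 and 3. Its log2 change was 0.61 ± 0.18 (SE; adjusted p = 0.0236, edgeR), a 1.52-fold difference in CPM, and it was higher in 3 of 3 cold libraries than in any warm one. The cold libraries kept the same order as for Cha11g006560, with replicate 2 the highest.

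The call for Cha11g006580 depended on single libraries. It was lost without low-temperature replicate 2 (adjusted p = 0.18), where the log2 change was 0.46. The call was also lost without low-temperature replicate 3 (adjusted p = 0.0827, log2 change 0.64), without high-temperature replicate 1 (adjusted p = 0.0539, log2 change 0.63) and without high-temperature replicate 3 (adjusted p = 0.0702, log2 change 0.64), where the change was no smaller than with all libraries. Limma on unfiltered FPKM lost it too (adjusted p = 0.0632). Its adjusted p lay between 0.00042 and 0.18 in 15 alternatives. Without high-temperature replicate 2 it held, at an adjusted p of 0.0025.

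The remaining activase models were minor and did not pass the test. Cha04g020730 (sequence 4, 174988546 to 174991526, minus strand) had 68.2, 62.5 and 68.8 FPKM in the low-temperature libraries, against 60.8, 62.5 and 68.5 FPKM in the high-temperature ones. Its groups overlapped, and the 95% interval of its log2 change was -0.21 to 0.31. Cha15g007220 (sequence 15, 77120322 to 77159511, plus strand) had 13.3, 13.9 and 11.7 FPKM at low and 11.4, 16.6 and 12.2 FPKM at high temperature, with a 95% interval of -0.44 to 0.31. Thus 1 of the 3 other activase models rose and none fell, where 9.27% and 9.65% of all tested models did. DESeq2, limma on filtered log2 FPKM and an unadjusted p under 0.05 gave the same count of 1 that rose and 0 that fell, while limma on unfiltered FPKM called 0.

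In the small chain family the next most abundant model went the other way from Cha06g019690. Cha01g021230 (sequence 1, 190228660 to 190230418, minus strand) had 6354, 5500 and 5342 FPKM in low-temperature replicates 1, 2 and 3, against 3258, 2972 and 3306 FPKM in high-temperature replicates 1, 2 and 3. The groups did not overlap, and low-temperature replicate 1 was the highest, the library in which Cha06g019690 was lowest. Cha01g021230 rose, with CPM of 3132 ± 302 at low and 1748 ± 85.0 at high temperature (SD, n = 3 each), a 1.79-fold difference. Its log2 change was 0.84 ± 0.17 (SE; adjusted p = 0.0028, edgeR). The call held in all 15 alternatives, with adjusted p from 2.3e-10 to 0.0196 and log2 changes from 0.76 to 0.89.

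The other small chain models were rare. Cha03g001420 (sequence 3, 9839326 to 9840667, minus strand) had 29.0, 23.5 and 20.7 FPKM at low and 16.1, 14.8 and 19.97 FPKM at high temperature. The groups did not overlap, but it did not pass the test (log2 change 0.52 ± 0.20 SE, adjusted p = 0.0854, edgeR). ChaUn28374.1 had 1, 2 and 1 counts in the low-temperature libraries and 19, 0 and 4 in the high-temperature ones, and was too low to be tested. So 1 of 2 tested small chain models other than Cha06g019690 rose and none fell, beside 9.27% and 9.65% of all tested models. DESeq2 and limma gave the same counts, while 2 rose at an unadjusted p under 0.05. All 4 models carry the same deposited protein name, and it was not tested whether they share near-identical stretches, so the division of reads among them is uncertain.

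**Figure D2:**
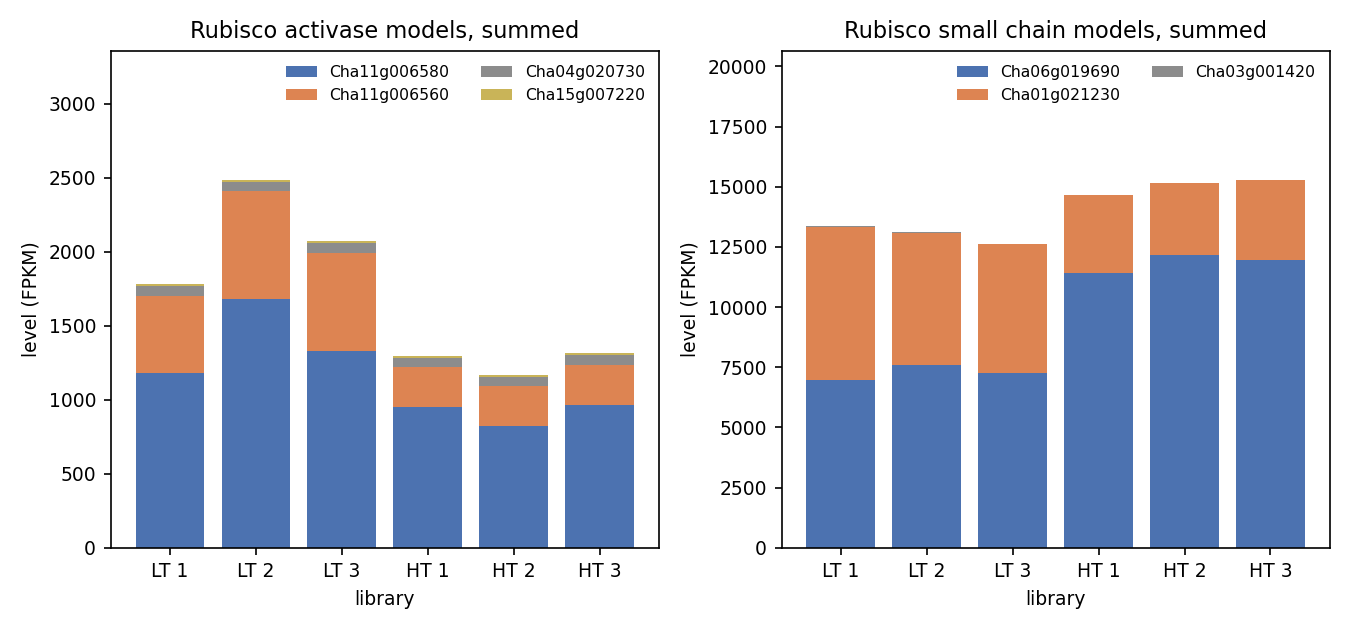
FPKM of the activase models (left) and of the 3 small chain models (right), without ChaUn28374.1, stacked in each library, with LT for low and HT for high temperature. The activase sum is higher in the LT libraries, and in the small chain sum the part of Cha01g021230 is larger there while that of Cha06g019690 is smaller.

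Summed over its models, the small chain family differed less between temperatures than either of its main members. The sum was 13352, 13104 and 12631 FPKM in low-temperature replicates 1, 2 and 3, against 14673, 15157 and 15294 FPKM in high-temperature replicates 1, 2 and 3. Every cold library was below every warm one, at a ratio of means of 0.866, or 0.87 without high-temperature replicate 2. Within the family, Cha06g019690 held 51.8%, 57.4% and 57.1% of counts in low-temperature replicates 1, 2 and 3. In high-temperature replicates 1, 2 and 3 it held 77.4%, 80.03% and 78.0%. The groups' shares did not overlap, and no 95% Wilson interval of a family share was wider than 1.11 percentage points, which covers counting error only. Cha01g021230 stood at 0.912, 0.725 and 0.735 times the FPKM of Cha06g019690 in the low-temperature libraries, against 0.286, 0.244 and 0.276 times in the high-temperature ones. These sums and shares contain the chosen small chain and were not tested.

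Summed over its models, activase RNA was higher in the cold, though Cha04g020730 and Cha15g007220 did not pass the test. The family sum was 1784, 2488 and 2071 FPKM in low-temperature replicates 1, 2 and 3, against 1296, 1169 and 1314 FPKM in high-temperature replicates 1, 2 and 3. Without Cha11g006560 it was 1478 ± 252 FPKM at low and 991 ± 74.4 FPKM at high temperature (SD, n = 3 each), mostly from Cha11g006580. Cha11g006560 made up 31.9% ± 1.47 of activase counts at low and 22.8% ± 1.07 at high temperature (SD, n = 3 each). Whether the activase models share near-identical stretches was not tested either, so the division of reads among them is uncertain. Set against the small chains, the summed activase level was 0.134, 0.190 and 0.164 times the summed small chain level in the low-temperature libraries. It was 0.0883, 0.0772 and 0.0859 times in the high-temperature ones. For the 2 chosen genes alone, the FPKM ratio of Cha11g006560 to Cha06g019690 was 0.0873 ± 0.0114 at low and 0.0227 ± 0.0011 at high temperature (SD, n = 3 each), which joins the 2 differences that led to their choice. The full activase sum, the share and both ratios contain chosen genes, and none of these values was tested.

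**Figure D3:**
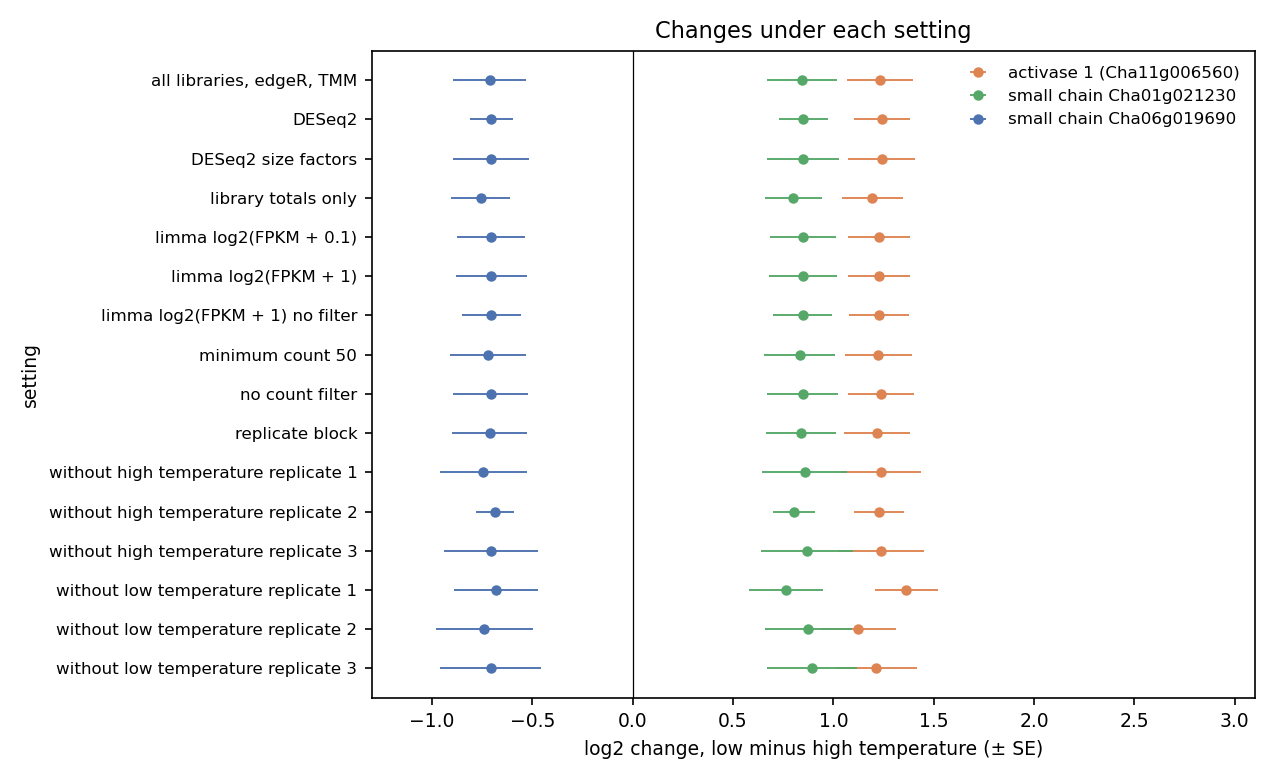
Log2 change, low minus high temperature, with SE bars, of Cha11g006560 (orange), Cha01g021230 (green) and Cha06g019690 (blue), with all libraries and under each of 15 alternative settings. The small chain Cha06g019690 stays between -0.76 and -0.68 and the small chain Cha01g021230 between 0.76 and 0.89.

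Genes that fold, assemble or maintain Rubisco were listed by protein name. Of 18 tested members 3 (16.7%) rose and none fell, where 9.27% of all tested models and 20.5% of those with at least 100 CPM were called higher. The median log2 change was 0.17, against -0.01 over all tested gene models and 0.11 over those with at least 100 CPM. DESeq2 and limma also called 3 higher and 0 lower, and at an unadjusted p under 0.05 the counts were 5 and 1. The counts were 4 and 0 without high-temperature replicate 2. A gene named for the N-methyltransferase of the Rubisco large subunit (Cha06g018850) had 39.6 ± 3.80 CPM at low and 16.9 ± 2.41 CPM at high temperature (SD, n = 3 each; log2 change 1.23 ± 0.16 SE, adjusted p = 4.7e-05, edgeR). Rubisco accumulation factor 1.1 (Cha08g009010), which in maize and Arabidopsis helps the large chains assemble, had 95.2 ± 6.88 CPM at low and 61.3 ± 5.76 CPM at high temperature (log2 change 0.64 ± 0.13 SE, adjusted p = 0.0025). These 2 were named because they had the smallest p of the list. The third, also named after its values were seen, was an alpha subunit of the Rubisco large subunit-binding chaperonin (Cha13g005110), at 847 ± 64.5 CPM in the cold and 542 ± 15.2 CPM in the warm. Another model with the N-methyltransferase name, Cha05g011970, had 35.2 ± 7.99 CPM at low and 31.6 ± 1.69 CPM at high temperature. It did not pass the test (adjusted p = 0.555, edgeR). Nor did a chaperonin 60 beta subunit (Cha01g023840), at 550 ± 45.8 CPM in the cold and 561 ± 49.1 CPM in the warm (adjusted p = 0.924). Both were named after their values were seen.

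Few reads fell on gene models named as the Rubisco large chain, whose working gene lies in the plastid genome. Of 3 such models 2 were tested, 1 fell and none rose, beside 9.65% lower and 9.27% higher of all tested models. DESeq2, limma on filtered FPKM and an unadjusted p under 0.05 gave the same counts. ChaUn29232.2, whose deposited domain text also lists a Ycf4 and a carboxyl transferase domain, had 50, 31 and 41 counts at low and 131, 470 and 103 counts at high temperature (log2 change -2.46 ± 0.58 SE, adjusted p = 0.0231, edgeR). High-temperature replicate 2 held by far the most of its counts. Without that library its log2 change was -1.56 (adjusted p = 0.00056). The call was lost without low-temperature replicate 2 (adjusted p = 0.0937) or 3 (adjusted p = 0.0609), and likewise with no count filter (adjusted p = 0.11) or by limma on unfiltered FPKM (adjusted p = 0.0696), each leaving 0 called in the list. Over 15 alternatives its adjusted p was 0.00056 to 0.11. Cha10g004620 had 5, 15 and 8 counts at low and 8, 22 and 21 counts at high temperature, and did not pass the test (adjusted p = 0.386).

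Of 29 tested enzymes of the Calvin cycle other than Rubisco, 5 (17.2%) rose and none fell, with a median log2 change of 0.24. That share lies between the 9.27% called higher of all tested models and the 20.5% of those with at least 100 CPM. By DESeq2 6 rose and 1 fell, by limma 5 and 1, and at an unadjusted p under 0.05 the counts were 9 and 3. Leaving out high-temperature replicate 2 gave 7 that rose and 0 that fell. Both chloroplast models of fructose-1,6-bisphosphatase, which releases a phosphate on the way to regenerating Rubisco's substrate, rose. ChaUn8386.2 had a log2 change of 0.88 ± 0.12 (SE; adjusted p = 0.00014, edgeR). Cha10g004720 had 11.9 ± 1.66 CPM at low and 4.84 ± 0.602 CPM at high temperature (SD, n = 3 each; log2 change 1.29 ± 0.22 SE, adjusted p = 0.00056). These 2 were named because they had the smallest p of the list. The other 3 that rose, also named after their values were seen, were a transketolase (Cha01g007640), a ribulose-phosphate 3-epimerase (Cha03g010890) and a phosphoglycerate kinase (Cha08g018760), with log2 changes of 0.86, 0.75 and 0.75.

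Photorespiration recycles the product that Rubisco makes when it takes up oxygen in place of CO2. Of 33 tested members of that list 8 (24.2%) rose and 1 (3.03%) fell, with a median log2 change of 0.05. Among models with at least 100 CPM 20.5% were called higher and 11.6% lower, and among all tested models 9.27% and 9.65%. Without high-temperature replicate 2 the counts were again 8 and 1. Fewer rose without low-temperature replicate 2 (4) or 3 (3) and without high-temperature replicate 1 (4) or 3 (5), and 5 rose with library totals as the only scaling or by limma on unfiltered FPKM. At an unadjusted p under 0.05, 8 rose and 4 fell. The 2 genes given next were named because they had the smallest p of the list. Serine-glyoxylate aminotransferase (Cha11g012530), a peroxisomal step, had 403 ± 29.8 CPM at low and 208 ± 21.1 CPM at high temperature (SD, n = 3 each; log2 change 0.95 ± 0.14 SE, adjusted p = 0.00024, edgeR). Glycine dehydrogenase (Cha12g005780), which breaks down glycine in mitochondria, had 209 ± 30.7 CPM at low and 131 ± 8.09 CPM at high temperature (log2 change 0.68 ± 0.14 SE, adjusted p = 0.0031). The single member that fell, a mitochondrial serine hydroxymethyltransferase (Cha03g018030), had a log2 change of -0.58 ± 0.14 (SE).

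Plastid thioredoxins and the reductases that charge them, which pass on light-driven redox signals to activase and other Calvin cycle proteins, gave 3 (23.1%) that rose and none that fell out of 13 tested, beside 20.5% higher of models with at least 100 CPM and 9.27% of all tested models. DESeq2, limma on filtered FPKM and an unadjusted p under 0.05 gave the same counts of 3 and 0, and 2 rose with library totals as the only scaling or by limma on unfiltered FPKM. The count changed with the library left out, since 0 rose without low-temperature replicate 2 or high-temperature replicate 3, and 1 without low-temperature replicate 3. In those fits the calls over all gene models fell from 5062 to 2606, 3635 and 2681. The log2 changes moved less. Over the libraries left out, that of thioredoxin X (Cha14g011790) was 0.48 to 0.50. For the ferredoxin-thioredoxin reductase catalytic chain (Cha01g023810) it was 0.49 to 0.63. Without high-temperature replicate 2, 3 rose and 1 fell. The catalytic chain of ferredoxin-thioredoxin reductase (Cha01g023810) had 35.8 ± 3.16 CPM at low and 24.3 ± 2.55 CPM at high temperature (SD, n = 3 each; adjusted p = 0.0123, edgeR). Thioredoxin X (Cha14g011790) had 46.1 ± 0.541 CPM at low and 32.9 ± 0.358 CPM at high temperature (adjusted p = 0.0132). These 2 were named because they had the smallest p of the list. The third that rose, also named after its values were seen, was an NADPH-dependent thioredoxin reductase 3 (Cha13g001280). Thioredoxin F2 (Cha08g008500), of the type that acts on activase in Arabidopsis, did not pass the test. It had 238 ± 16.3 CPM at low and 274 ± 38.0 CPM at high temperature, with a 95% interval of -0.51 to 0.11 for its log2 change. It too was named after its value was seen, for its role.

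**Figure D4:**
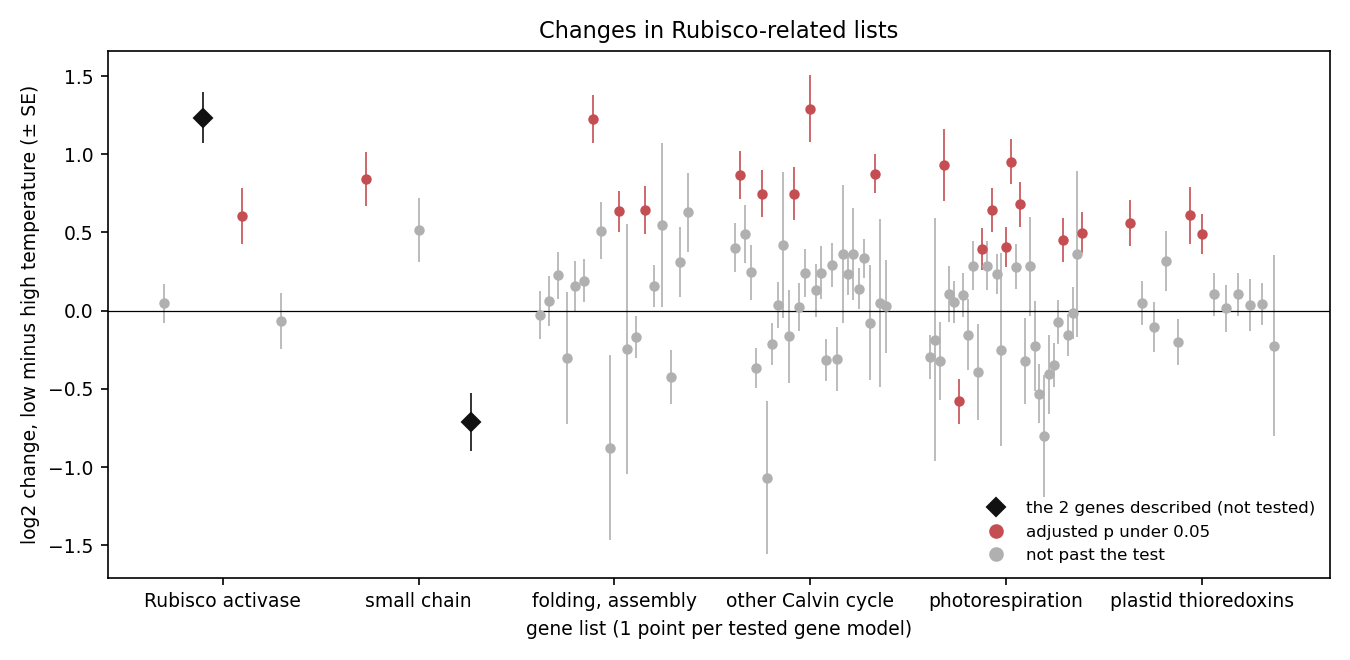
Log2 change, low minus high temperature, with SE bars, of each tested gene model in 6 Rubisco-related lists. Black diamonds are Cha11g006560 and Cha06g019690, red points passed an adjusted p under 0.05 and grey points did not. Most red points lie above 0. The Rubisco large chain list, with 1 call that fell, is not drawn.

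The genes whose profile over the 6 libraries was most like that of Cha11g006560 were sought among 3614 named gene models with a mean of at least 50 CPM. Likeness was Pearson's r of log2 CPM, which across 2 separated groups mostly follows the group difference and is given as a description. The 5 nearest were a cytosolic pyruvate kinase (Cha10g007770, r = 0.9997), a phosphoglycerate mutase (Cha05g016380, r = 0.9989), a cytosolic aconitate hydratase (Cha05g014390, r = 0.9986), a homolog of the RNA surveillance factor UPF3 (Cha02g010960, r = 0.9978) and an NADP-dependent malic enzyme (Cha06g013820, r = 0.9972). The pyruvate kinase had 188 ± 20.6 CPM at low and 107 ± 0.724 CPM at high temperature (SD, n = 3 each). It thus shared with Cha11g006560 a very narrow warm group and a wide cold one. The neighbouring activase Cha11g006580 came at rank 319 (r = 0.951) and the small chain Cha01g021230 at rank 510 (r = 0.915). The most opposite profiles were those of a patatin-like protein 2 (Cha01g019880, r = -0.998), an AP-1 complex sigma subunit (Cha09g008660, r = -0.998), a nudix hydrolase 17 (Cha03g013610, r = -0.997), a probable aspartyl aminopeptidase (Cha03g008720, r = -0.995) and an IQ-domain protein 31 (Cha03g019950, r = -0.994).

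For Cha06g019690 the 5 nearest profiles were those of an anthranilate phosphoribosyltransferase (Cha01g024430, r = 0.997), a CBL-interacting protein kinase 3 (Cha11g013460, r = 0.996), a 1-aminocyclopropane-1-carboxylate oxidase (Cha08g012340, r = 0.996), a cytosolic acetyl-CoA acetyltransferase (Cha08g012980, r = 0.995) and a magnesium-protoporphyrin cyclase (Cha10g002780, r = 0.993). The cyclase, a step of chlorophyll synthesis, had 628 ± 10.5 CPM at low and 918 ± 13.3 CPM at high temperature (SD, n = 3 each). The oxidase, which makes ethylene, had 307 ± 7.42 CPM at low and 610 ± 34.6 CPM at high temperature. The most opposite were a YTH domain protein 2 (Cha05g001870, r = -0.998), a basic blue protein from an unnamed locus (r = -0.996), an F-box protein (Cha08g018270, r = -0.994), a SEC31 homolog (Cha06g009480, r = -0.994) and a Pto-interacting protein 1 (Cha09g018060, r = -0.993). The small chain Cha01g021230 had r = -0.988 with Cha06g019690, at rank 3600 of 3614.

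The surroundings of the genes were read from the deposited coordinates, within 100 kb on either side, a choice made after the design was set. No other gene model overlapped either gene. Around Cha11g006560 lay 12 gene models, of which 10 were tested. Of those, 6 rose, among them the activase Cha11g006580 already described, and 1 fell, where 9.27% and 9.65% of all tested models did. The same counts were found without high-temperature replicate 2, but 3 rose without low-temperature replicate 2 or 3 or high-temperature replicate 1, and 4 without high-temperature replicate 3. The one that rose with the smallest adjusted p, Cha11g006510, has no protein name. The plastid import channel protein TOC75-3 (Cha11g006550) lay 45838 bases away and had 173, 198 and 200 CPM in the low-temperature libraries, against 106, 90.9 and 123 CPM in the high-temperature ones (adjusted p = 0.00064, edgeR). The gene model between the activases, a pentatricopeptide repeat protein (Cha11g006570), did not pass the test (adjusted p = 0.555). Around Cha06g019690 there were 2 gene models, neither a small chain, and 1 of them, the LOB domain protein 41 (Cha06g019700), fell (adjusted p = 0.007), a call lost without low-temperature replicate 2. The small chain models Cha01g021230 and Cha03g001420 are on other numbered sequences.

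Markers of the tissue and of other cell types were followed by protein name beside these levels. Chlorophyll a-b binding proteins, which mark green tissue, had 13 of 20 tested members (65%) that fell, beside 11.6% lower of models with at least 100 CPM and 9.65% of all tested models. None rose, also none by DESeq2, by limma or at an unadjusted p under 0.05. Without high-temperature replicate 2, 17 fell, and over the other libraries left out 6 (without low-temperature replicate 3) to 9 fell, with 7 without low-temperature replicate 2 and 8 without high-temperature replicate 1 or 3. Their summed level was 23113 to 23950 CPM in the low-temperature libraries and 27825 to 41232 CPM in the high-temperature ones, with replicate 2 the lowest of the warm group. In that same replicate Cha06g019690 was at its highest. The most abundant member (Cha07g009140) had 7714 ± 325 CPM at low and 14063 ± 3524 CPM at high temperature (SD, n = 3 each). Among 36 tested markers of dividing cells 1 rose and 4 fell (2 and 6 without high-temperature replicate 2, 1 and 2 without low-temperature replicate 2). The share of 11.1% that fell is near the 9.65% lower of all tested models. By DESeq2 1 rose and 6 fell, by limma 1 and 3, and at an unadjusted p under 0.05 the counts were 3 and 10. Their median log2 change was -0.13. The markers had summed levels of 12459 to 16335 CPM at low and 9415 to 14389 CPM at high temperature. Histone H4 (Cha10g005700) led them with 2521 ± 458.4 CPM at low and 2050 ± 686 CPM at high temperature. Xylem and secondary wall markers had 1 of 14 (7.14%) that rose, near the 9.27% of all tested models, and none that fell by edgeR, DESeq2 or limma, or 1 and 3 at an unadjusted p under 0.05, with sums of 204 to 268 CPM at low and 187 to 232 CPM at high temperature. Their most abundant member was a laccase-17 (Cha04g020640) with 52.4 ± 10.4 CPM at low and 51.5 ± 14.5 CPM at high temperature. Of 19 tested epidermis markers 3 (15.8%) rose and 2 (10.5%) fell, beside 9.27% and 9.65% of all tested models, with sums of 2536 to 2890 CPM at low and 2246 to 2726 CPM at high temperature, led by a 3-ketoacyl-CoA synthase 10 (Cha14g003170) with 937 ± 90.2 CPM at low and 960 ± 44.7 CPM at high temperature. Of the marker gene models 1, in the list for dividing cells, was at 0 in every library. The part of these cell types in the levels of activase and the small chains was not tested.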

How the data were processed

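The authors deposited raw counts per gene model and FPKM for the same 40118 gene models, with names and coordinates used here as given. The submitters' processing notes name, without roles, featureCounts 1.5.0-p3, HISAT2 2.0.5, fastp, CASAVA 1.8.2, R 4.1.0 and DESeq2 1.20.0. Genome build and strand setting: not given in the sources used here. Without a known strand setting, sense and antisense reads at 1 place cannot be separated. Each deposited FPKM equals count over coding length and over 1 divisor per library, 0.977 to 1.13 times its total.

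The main test was edgeR 4.0.16 under R 4.3.3 (robust quasi-likelihood, TMM scaling, genes filtered at a minimum count of 10, no covariate beside the group), with adjustment over all tested gene models and calls at an adjusted p under 0.05. Alternatives used DESeq2 1.42.0 and limma 3.58.1 on log2(FPKM + 1 or + 0.1), with a mean FPKM of at least 0.5 or no filter, other scalings, count filters of 50 or none, a replicate block and each library left out. The steps were tested on simulated counts, with 50 gene models changed per fold change, none of them rare. That is far fewer than were called in the data, so recovery there and for rare models may differ. In the simulation edgeR recovered 26% of 1.5-fold, 84% of 2-fold and 100% of 4-fold changes. A gene model that did not pass the test may therefore still differ. CPM are scaled by TMM, and a prior of 2 counts was added for likeness on log2 CPM. The Wilson intervals of family shares and the floor of 3 counts (0.197 CPM) cover counting error only. Intervals of log2 changes were built from the edgeR SE and so include the spread between libraries. Replicates differed by a mean chi-square of at least 5.40 per gene, so none were merged.

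Members and lists were chosen with earlier results of these data known. Lists were matched on protein name by word patterns. A plastid glycolytic dehydrogenase, a serine synthesis dehydrogenase and some ketoacyl synthases that the patterns let in by mistake were dropped before their values were read. Named genes were both members, all models of their families, the 2 smallest p of each pathway list, the 5 most and 5 least alike genes and the most abundant marker of each cell type.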

Additional observations from a re-analysis of the deposited data

How the results depend on the processing

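Leaving out 1 library moved the number of gene models called, 5062 with all libraries, to between 2606 (without low-temperature replicate 2) and 5621 (without high-temperature replicate 2), and it was 2681 without low-temperature replicate 3. With limma on unfiltered log2(FPKM + 1) it was 2867. The number of other activase models called was 0 to 1 over the libraries left out and 0 with unfiltered FPKM, where 1 still had an unadjusted p under 0.05. Over the 5 pathway lists, 21 calls became 12 to 25, with 12 without low-temperature replicate 2 and 12 without replicate 3. The log2 changes of activase 1 and of Cha06g019690 kept their direction in all 15 alternatives. Both were chosen for that difference and their groups did not overlap, so leaving out 1 library could hardly reverse it. At its widest, the shift of activase 1 was under the SD of log2 CPM of its cold libraries and over that of its warm ones. Of 284 values of 19 tested genes, 256 kept direction and call, 19 lost the call and 9 changed sign. Those 9 were of 3 genes that did not pass the test: Cha15g007220 (-0.17 to 0.13 over the libraries left out), Cha04g020640 (-0.0051 with library totals, -0.17 to 0.24 over the libraries left out) and Cha14g003170 (-0.11 to 0.0104). Same-numbered libraries did not deviate together (r of -0.011, 0.04 and -0.0094), so these values show no pairing by number. The labels do not say whether same-numbered libraries were handled together, and such correlations cannot settle it. With the replicate number as a block 4805 gene models were called, and the pathway lists had 22 calls. Depth did not limit the abundant models, while ChaUn28374.1 and the large chain models had too few counts for a firm comparison. A fit that leaves out a library rests on 2 libraries in that group.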

Other observations

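Between its warm libraries Cha11g006560 varied less than the median gene model of like level, and between its cold libraries more. The SD of its log2 CPM was 0.253 at low and 0.0123 at high temperature (n = 3 each). For 159 tested gene models within 0.5 of its mean log2 CPM, the median SD was 0.112 at low and 0.209 at high temperature. The neighbouring activase Cha11g006580 had an SD of 0.258 at low and 0.11 at high temperature. Cha06g019690 had 0.0609 at low and 0.0591 at high temperature, although high-temperature replicate 2 stood apart in many other genes.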
